A study of Mus musculus with 8 samples.

Results

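The 38 genes described here encode the plasma proteins of the complement system and of blood clotting. They were fixed by symbol, and each symbol was found as 1 NCBI gene among the 45777 rows of the expression table. They fall into complement activation (10 genes), the terminal complement pathway (6), complement regulators (3), clotting factors (13), inhibitors of clotting and of plasmin (5), and plasminogen of the fibrinolytic system (1). RNA was sequenced from the liver and colon of mice with non-alcoholic steatohepatitis (NASH), an inflammatory fatty liver disease, of mice treated with bovine colostrum extracellular vesicles (EVs) at a low or high dose, and of control mice. That the EV mice carried the NASH model was taken from the design text. Each of the 4 groups had 1 library per tissue, so every value below is that of 1 library, no test was possible, and how far mice of a group differ is unknown. The labels used here give no strain, sex, age, diet, EV amount or treatment time, and do not say whether animals were pooled.

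Hepatocytes secrete most of these proteins into blood. Complement is a chain of proteases started by C1 on antibody (classical pathway) or by mannose-binding lectins on microbial sugars (lectin pathway). A further route, the alternative pathway, has factor B as its protease. All of these routes cleave C3 and then C5, and the terminal components C6 to C9 assemble into a membrane pore. Clotting is a second protease chain that ends in thrombin, which turns fibrinogen into fibrin, and it is held back by antithrombin, heparin cofactor II and the protein C system. C3, factor B and fibrinogen are also known as acute phase proteins, whose plasma levels increase in inflammation.

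Values are FPKM (fragments per kilobase of transcript, scaled to the mapped fragments of the library), which can be compared between genes, and depth was unknown. In liver, 12866 genes reached 1 FPKM in at least 1 library. The median of these genes was 0.55 higher on the log2(FPKM + 1) scale in NASH than in control liver, and the median of the 2273 genes with a mean of 20 FPKM or more was 0.27 higher. For this reason liver log2 ratios below have the median gene as their zero, and where the sign or the 2-fold side of a gene described by its level differs as deposited, that ratio stands beside it. Alb and 8 other hepatocyte markers (Tf was not matched to a row) summed to 24038 FPKM in NASH, 24618 in EV low dose, 25263 in EV high dose and 37013 in control liver. The colon epithelium markers summed to between 1.65 and 4.37 FPKM in the liver libraries and to between 2879 and 3531 FPKM in the colon libraries, and the colon marker Cdx2 was listed at 0 in every liver library.

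The 38 genes reached between 14.4 and 2019 FPKM in liver, and each of them passed the 1 FPKM filter in every liver library. Together they summed to 9637 FPKM in NASH, 10183 in EV low dose, 11101 in EV high dose and 13885 in control liver, which was 2.57%, 2.69%, 2.78% and 3.17% of the FPKM of protein-coding genes in those libraries. The median of the 38 genes was 128, 134, 156 and 176 FPKM in the same order. C3 had the highest level of the 38 in the NASH and EV low dose livers, and the fibrinogen chain Fgb in the EV high dose and control livers.

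**Figure D1:**
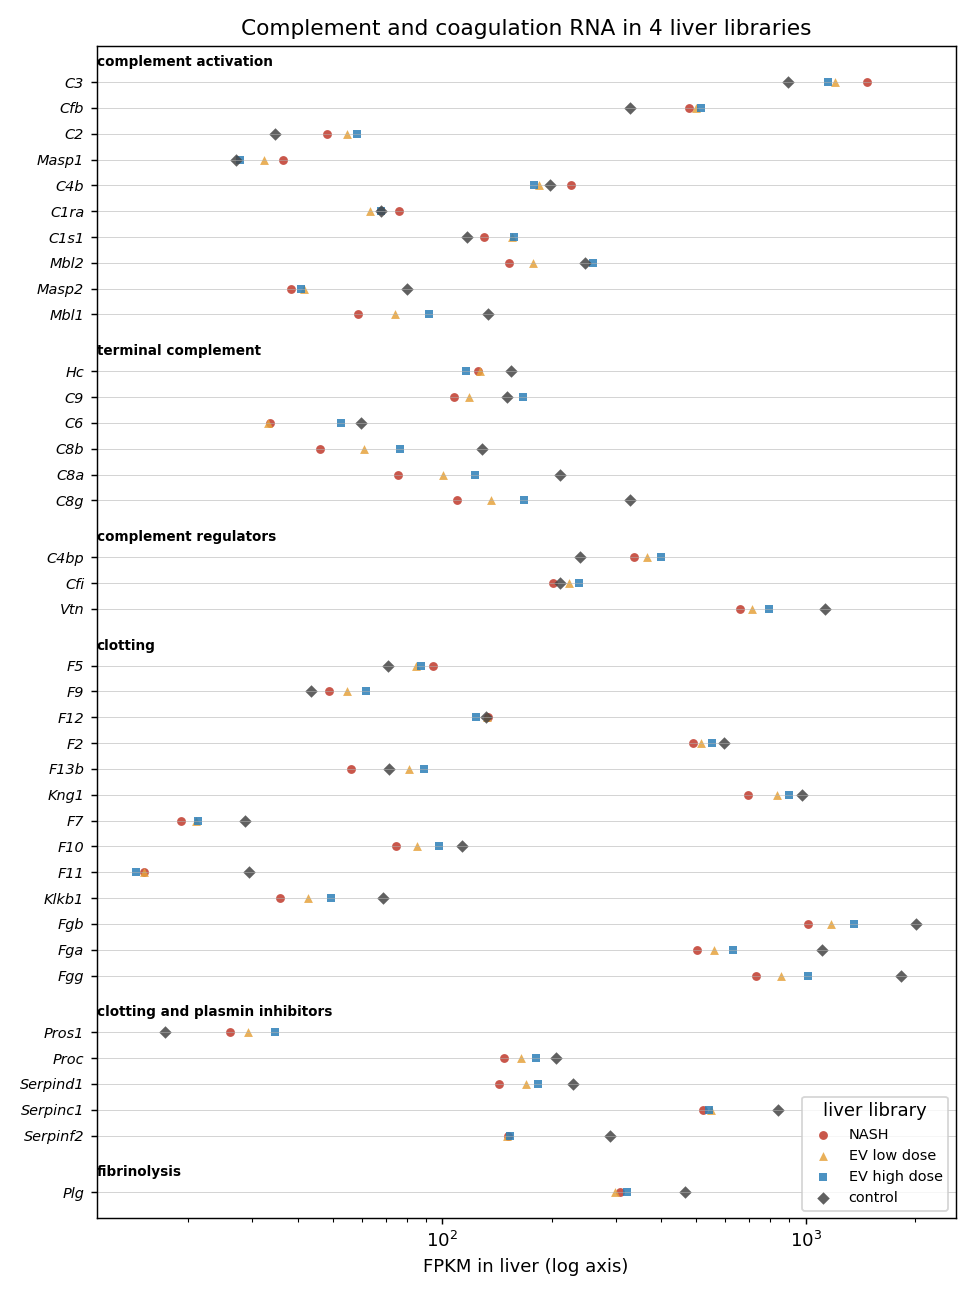
FPKM of the 38 genes (log axis) in the 4 liver libraries, 1 point per library, grouped by branch. In the terminal complement and fibrinogen genes the control library stands to the right of the others except at C9, whereas C3, Cfb, C2, C4bp, F5 and Pros1 have the control library at the left.

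Complement (16 genes), clotting (13) and all inhibitors (8, with the complement regulators) had close medians in NASH over control liver. These were -0.94, -1.11 and -1.12 relative to the median gene, and -0.39, -0.56 and -0.57 as deposited. On the first scale 8 of 16, 8 of 13 and 5 of 8 genes were 2-fold lower. The narrower branches and single genes differed more. Terminal complement, fibrinogen and the mannose-binding lectins stood well below control, while C3, factor B, C2, C4bp, factor V and protein S had higher FPKM than in control. Relative to the median gene, 22 of 38 genes were at least 2-fold lower and none was 2-fold higher. Over all liver genes tested 7.66% were 2-fold lower and 7.21% higher on this scale, and among genes of 20 FPKM or more 19% were lower and 8.32% higher. As deposited, 7 of 38 genes were 2-fold lower and none higher, against 3.23% and 20.5% of all genes. The median of the 38 log2 ratios was -1.08 relative to the median gene and -0.52 as deposited. C8g, C8a, C8b and Fgg were 2-fold lower under the main setting and each of the 10 alternatives that rescale or refilter the table, and 14 of the 38 genes were 2-fold lower under none of these.

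**Figure D2:**
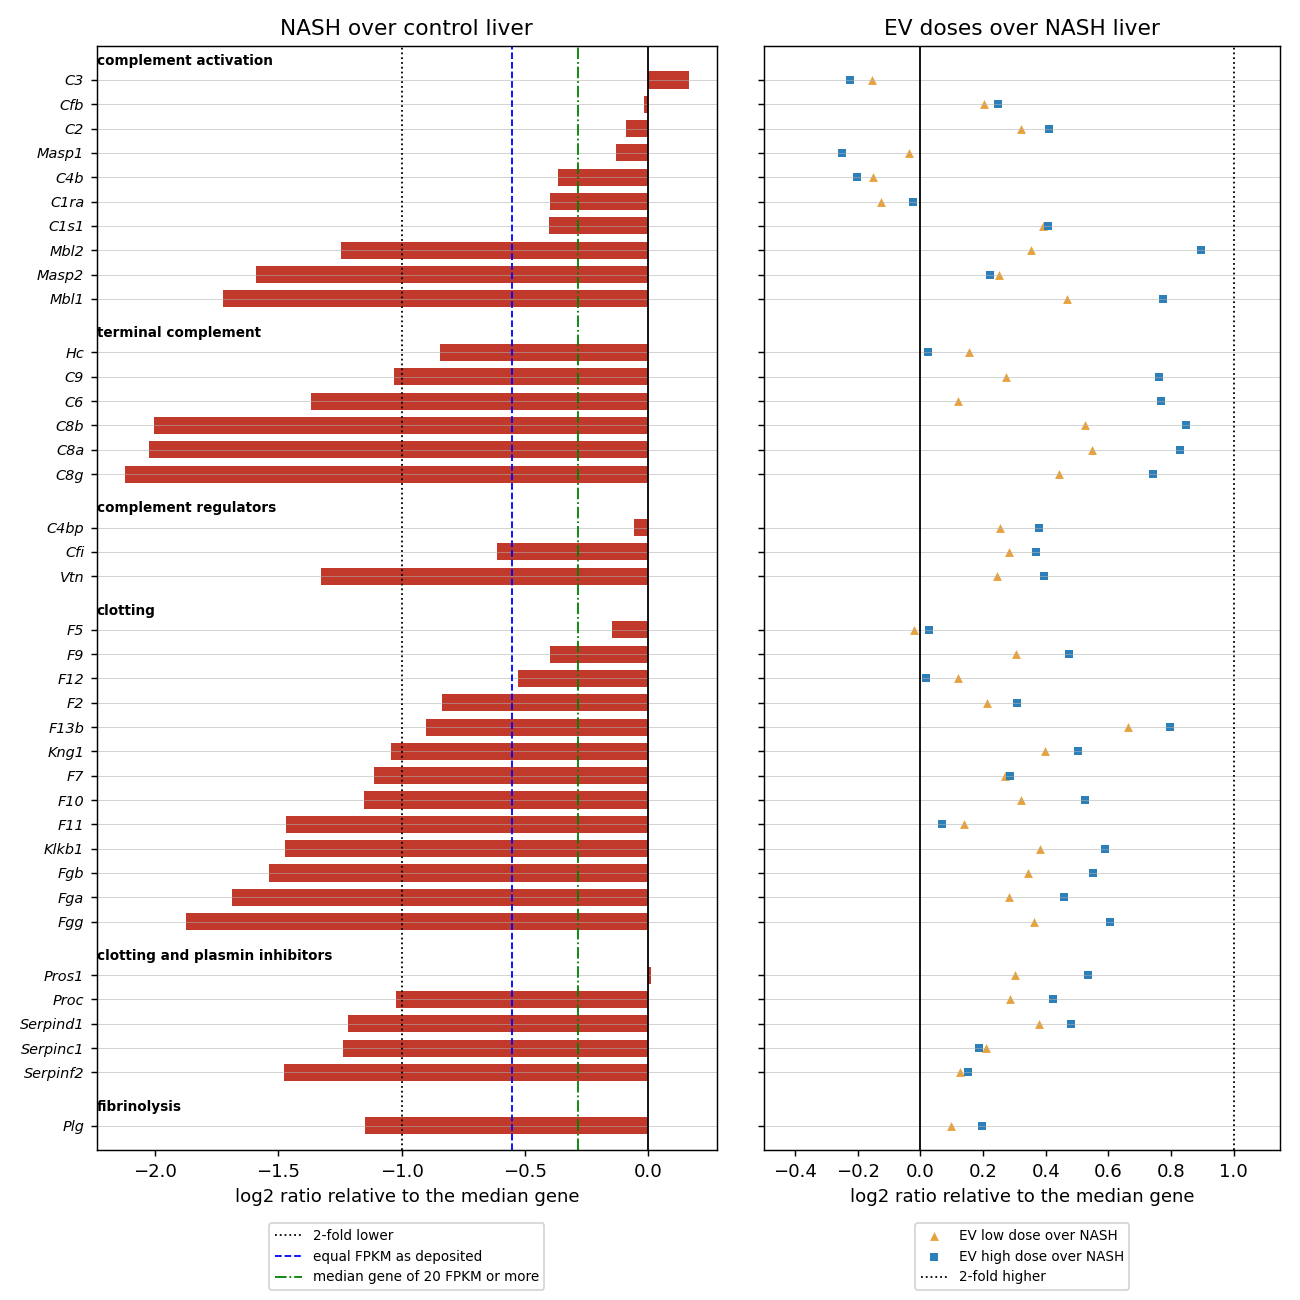
Log2 ratios of the 38 genes relative to the median gene, by branch: left, NASH over control liver as bars; right, EV low dose (triangles) and EV high dose (squares) over NASH liver. In the left panel a dotted line marks 2-fold lower, a dashed line equal FPKM as deposited and a dash-dotted line the median gene of 20 FPKM or more; bars of the C8 subunits reach -2.00 to -2.12 and that of C3 stands at 0.16. In the right panel points lie between -0.25 and 0.90, and none reaches the dotted line of 2-fold higher.

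The bases before the transcription start are shown for the fibrinogen genes and C8a and C8b, which were low together, and for C3 and C4bp, which were not. They are RefSeq sequences of GRCm38.p6 (mm10), 5′ to 3′ on the strand of the gene given in brackets, up to 250 bases before the start, cut back by 77 bases in Fga, 39 in C4bp and 89 in C8a where an exon of GENCODE M21 or an earlier start of the same gene in RefSeq begins. Capitals mark matches on either strand to GTTAAT (found in HNF1 sites), TTCNNNGAA (STAT3), TTNNGNAA (C/EBP) and AGAACA (glucocorticoid receptor).
C8a chr4:104876488-104876648 (-): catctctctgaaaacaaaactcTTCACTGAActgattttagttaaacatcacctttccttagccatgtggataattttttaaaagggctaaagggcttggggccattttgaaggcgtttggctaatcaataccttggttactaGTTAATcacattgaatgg
C8b chr4:104766067-104766316 (+): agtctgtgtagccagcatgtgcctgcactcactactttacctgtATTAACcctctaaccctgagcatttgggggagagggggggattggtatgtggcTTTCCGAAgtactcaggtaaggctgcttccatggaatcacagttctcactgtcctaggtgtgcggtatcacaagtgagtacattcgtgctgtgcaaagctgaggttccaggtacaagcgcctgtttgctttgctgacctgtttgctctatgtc
Fga chr3:83025903-83026075 (+): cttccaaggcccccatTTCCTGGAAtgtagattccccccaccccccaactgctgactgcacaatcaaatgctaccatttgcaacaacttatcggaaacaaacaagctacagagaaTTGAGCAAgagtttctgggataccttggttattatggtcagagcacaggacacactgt
Fgb chr3:83049864-83050113 (-): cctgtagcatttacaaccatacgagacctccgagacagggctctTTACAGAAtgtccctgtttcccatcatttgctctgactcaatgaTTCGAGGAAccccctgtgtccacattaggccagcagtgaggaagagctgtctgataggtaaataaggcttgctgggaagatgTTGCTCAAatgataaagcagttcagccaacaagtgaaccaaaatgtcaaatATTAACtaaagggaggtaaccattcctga
Fgg chr3:83007474-83007723 (+): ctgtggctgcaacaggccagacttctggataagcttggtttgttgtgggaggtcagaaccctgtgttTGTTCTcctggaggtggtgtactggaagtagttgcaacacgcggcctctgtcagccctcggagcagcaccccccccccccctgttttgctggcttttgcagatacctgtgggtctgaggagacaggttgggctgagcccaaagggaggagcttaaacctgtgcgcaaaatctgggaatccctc
C3 chr17:57228137-57228386 (-): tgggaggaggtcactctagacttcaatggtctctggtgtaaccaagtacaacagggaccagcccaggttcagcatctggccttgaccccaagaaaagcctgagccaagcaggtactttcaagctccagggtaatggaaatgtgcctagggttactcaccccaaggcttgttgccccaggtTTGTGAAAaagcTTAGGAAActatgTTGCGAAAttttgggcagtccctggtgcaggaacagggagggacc
C4bp chr1:130661658-130661868 (-): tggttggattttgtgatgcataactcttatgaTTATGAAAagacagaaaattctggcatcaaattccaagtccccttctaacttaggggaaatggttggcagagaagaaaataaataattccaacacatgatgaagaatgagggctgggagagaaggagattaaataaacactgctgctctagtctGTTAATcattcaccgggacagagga
Promoters were available for 30 of the 38 genes. The counts below cover the full 250 bases, with those cut off above, and the GTTAAT counted for Fga is not among the bases shown. A gene counted if any of its windows matched, and C8g and C1s1 had 2 windows each. GTTAAT was in 9 of 30 genes, and in 6.43% of all 32851 promoter windows. TTCNNNGAA was in 6 of 30 genes and 7.02% of windows, TTNNGNAA in 15 and 36.8%, and AGAACA in 10 and 16.1%. GTTAAT was in 5 of the 19 genes that were 2-fold lower relative to the median gene and in 4 of the 11 others, TTCNNNGAA in 4 and 2, TTNNGNAA in 8 and 7, and AGAACA in 6 and 4. Fgb held 1 match to GTTAAT, 1 to TTCNNNGAA and 2 to TTNNGNAA, C3 held 3 to TTNNGNAA, and Fgg held 1 to AGAACA and none of the others. A match of letters does not show binding.

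The terminal complement branch had the lowest median of the branches with several genes, -1.69, with 5 of 6 genes 2-fold lower (as deposited -1.13, with 3 of 6). C8 is built from 3 chains, and its alpha and beta chains belong to the pore-forming family of C6 and C9. C8g, which encodes the gamma chain, a lipocalin-type protein, was at 110.1 FPKM in NASH, 136 in EV low dose, 168 in EV high dose and 329 in control liver (gene ID 69379, chromosome 2, 25498650 to 25501777). Its log2 ratio of NASH over control was -2.12. C8a, the alpha chain, was at 75.5 FPKM in NASH, 101 in EV low dose, 123 in EV high dose and 211 in control liver (log2 -2.02). C8b, the beta chain, was at 46.3 FPKM in NASH, 60.9 in EV low dose, 76.5 in EV high dose and 128 in control liver (log2 -2.00). In all 3 genes the NASH library was lowest and the control library highest, with the EV libraries between. The chains kept nearly the same proportions. C8a made up 32.5% of their summed FPKM in NASH, 33.8% in EV low dose, 33.4% in EV high dose and 31.6% in control liver, and C8b between 19.2% and 20.8%.

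C6, which starts pore assembly after C5 cleavage, was at 33.7 FPKM in NASH, 33.2 in EV low dose, 52.8 in EV high dose and 59.9 in control liver (log2 -1.37, -0.81 as deposited). C9, which forms the ring of the pore, was at 108 FPKM in NASH, 119 in EV low dose, 167 in EV high dose and 151 in control liver (log2 -1.03, -0.48 as deposited), so the EV high dose library exceeded control. Hc, the mouse gene for C5, was at 126 FPKM in NASH, 127 in EV low dose, 116 in EV high dose and 154 in control liver (log2 -0.85), and its NASH and EV libraries lay within a narrow range below control.

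Complement activation had a median of -0.38, and its genes ranged from -1.73 to 0.16. As deposited the median stood above 0, at 0.17, with 2 of 10 genes 2-fold lower, against 3 of 10 relative to the median gene. C3, the protein on which all routes converge, was at 1475 FPKM in NASH, 1204 in EV low dose, 1149.6 in EV high dose and 897 in control liver (log2 0.16, 0.72 as deposited; gene ID 12266, chromosome 17, 57203967 to 57228136). Cfb, the protease of the alternative pathway, was at 477 FPKM in NASH, 499.8 in EV low dose, 516 in EV high dose and 329 in control liver (log2 -0.02, 0.54 as deposited). C2, its counterpart in the classical and lectin pathways, was at 48.1 FPKM in NASH, 54.7 in EV low dose, 58.4 in EV high dose and 34.6 in control liver (log2 -0.09, 0.46 as deposited). These 3 genes were lowest in control in the FPKM as deposited, and their place relative to other genes was near that of the median gene. C2 and Cfb lie 88 bases apart on chromosome 17, and strand-specific counting is not given in the sources used here.

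The mannose-binding lectins and Masp2 of the lectin pathway lay at the other end. Mbl1, a mannose-binding lectin, was at 58.6 FPKM in NASH, 74.0 in EV low dose, 91.9 in EV high dose and 133 in control liver (log2 -1.73). Mbl2, the other mannose-binding lectin, was at 153 FPKM in NASH, 177 in EV low dose, 259.7 in EV high dose and 248 in control liver (log2 -1.25, -0.69 as deposited). Masp2, the lectin-bound protease that cleaves C4 and C2, was at 38.5 FPKM in NASH, 41.7 in EV low dose, 41.0 in EV high dose and 80.1 in control liver (log2 -1.59). For Mbl1 and Masp2 control was the highest library, while for Mbl2 the EV high dose library exceeded it. Masp1, a second lectin-bound protease, differed from these: it was at 36.5 FPKM in NASH, 32.3 in EV low dose, 27.8 in EV high dose and 27.0 in control liver (log2 -0.13, 0.42 as deposited), highest in NASH. Other recognition genes of this pathway outside the 38 also had FPKM above control in NASH liver: Colec11 was at 33.3 FPKM in NASH against 16.1 in control liver (log2 0.45), Colec10 at 9.99 FPKM in NASH against 8.13 in control liver (log2 -0.29, 0.27 as deposited) and Fcna at 22.1 FPKM in NASH against 20.9 in control liver (log2 -0.47, 0.08 as deposited). The ratio of Masp1 to Masp2 FPKM within a library, which no scaling can change, was 0.950 in NASH, 0.775 in EV low dose, 0.678 in EV high dose and 0.338 in control liver.

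C4b, C1ra and C1s1 of the classical pathway stood between these ends. C4b, cleaved by C1s, was at 226 FPKM in NASH, 185 in EV low dose, 179 in EV high dose and 198 in control liver (log2 -0.36, 0.19 as deposited). C1ra and C1s1, the proteases of C1, stood at -0.40 and -0.40, and at 0.16 and 0.15 as deposited, and C1s1 was at 130.02 FPKM in NASH, 155 in EV low dose, 157 in EV high dose and 117 in control liver. Each has a close copy, so their FPKM may be shared: C1rb was at 22.0 FPKM in NASH against 19.9 in control, C1s2 at 7.76 against 7.74 and C4a at 15.4 against 19.1.

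Of the complement regulators, Vtn was low and C4bp was not. Vtn encodes vitronectin, which blocks insertion of the pore, and was at 661 FPKM in NASH, 712 in EV low dose, 792 in EV high dose and 1132 in control liver (log2 -1.33, -0.78 as deposited). C4bp encodes the C4b-binding protein, a cofactor of factor I, and was at 338 FPKM in NASH, 366 in EV low dose, 400.2 in EV high dose and 239 in control liver (log2 -0.06, 0.50 as deposited). Cfi, the protease factor I, was at 202 FPKM in NASH, 223 in EV low dose, 238 in EV high dose and 210.5 in control liver (log2 -0.61). The EV high dose library was highest for C4bp and Cfi, and control for Vtn.

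Clotting factors had a median of -1.11 with 8 of 13 genes 2-fold lower (as deposited -0.56, with 2 of 13). The fibrinogen chains were the lowest. Fgg, the gamma chain, was at 731 FPKM in NASH, 855 in EV low dose, 1015 in EV high dose and 1830.3 in control liver (log2 -1.87; gene ID 99571, chromosome 3, 83007724 to 83015056). Fga, the alpha chain, was at 504 FPKM in NASH, 558 in EV low dose, 631 in EV high dose and 1109 in control liver (log2 -1.69). Fgb, the beta chain, was at 1018 FPKM in NASH, 1174 in EV low dose, 1359 in EV high dose and 2019 in control liver (log2 -1.54, -0.99 as deposited). The order NASH, EV low dose, EV high dose, control from low to high held in each chain. Fga made up 22.4% of the 3 chains in both NASH and control liver, whereas Fgg made up 32.5% in NASH, 33.1% in EV low dose, 33.8% in EV high dose and 36.9% in control liver.

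The other clotting factors ranged from -1.47 to -0.15. F11 and Klkb1, factor XI and prekallikrein of the contact system, stood at -1.47 and -1.47, and at -0.92 and -0.92 as deposited, and are 4633 bases apart on chromosome 8. Klkb1 was at 35.9 FPKM in NASH, 42.7 in EV low dose, 49.6 in EV high dose and 68.8 in control liver, and F11 at 15.1 FPKM in NASH, 15.1 in EV low dose, 14.4 in EV high dose and 29.3 in control liver. Their ratio to each other was alike in NASH and control and lower in the EV high dose liver, at 0.420 F11 per Klkb1 in NASH, 0.353 in EV low dose, 0.290 in EV high dose and 0.426 in control. F10 and F7, factors X and VII, stood at -1.15 and -1.11, and at -0.60 and -0.56 as deposited. Kng1, high molecular weight kininogen, stood at -1.04, and at -0.49 as deposited (696 FPKM in NASH, 834 in EV low dose, 899 in EV high dose and 977 in control liver); its close copy Kng2 was at 156 FPKM in NASH against 153 in control. Smaller differences were seen in F13b, the carrier chain of factor XIII (-0.90), and F2, prothrombin (-0.84). F5, the cofactor of factor Xa, was at 94.3 FPKM in NASH, 84.5 in EV low dose, 87.5 in EV high dose and 70.9 in control liver (log2 -0.15, 0.41 as deposited). F9, the factor missing in haemophilia B, was at 48.7 FPKM in NASH, 54.8 in EV low dose, 61.9 in EV high dose and 43.6 in control liver (log2 -0.40, 0.16 as deposited), and F12, which starts the contact pathway, at 134 FPKM in NASH, 133 in EV low dose, 124 in EV high dose and 132 in control liver (log2 -0.53, 0.03 as deposited). F5 and F9 were lowest in control in FPKM, and F12 was nearly level across the libraries.

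The inhibitors of clotting and plasmin had a median of -1.22, with 4 of 5 genes 2-fold lower and none as deposited (median -0.66). Serpinf2, alpha-2-antiplasmin, was at 152 FPKM in NASH, 151 in EV low dose, 154 in EV high dose and 289 in control liver (log2 -1.48, -0.92 as deposited). Serpinc1, antithrombin, was at 523 FPKM in NASH, 549.6 in EV low dose, 542 in EV high dose and 842 in control liver (log2 -1.24, -0.69 as deposited). Serpind1, heparin cofactor II, was at 144 FPKM in NASH, 170.1 in EV low dose, 183 in EV high dose and 228 in control liver (log2 -1.22, -0.66 as deposited). In each the control library was highest, and for Serpinf2 and Serpinc1 the NASH and EV libraries were close together. Proc, protein C, was at 148 FPKM in NASH, 164 in EV low dose, 181 in EV high dose and 206 in control liver (log2 -1.02, -0.47 as deposited). Pros1, protein S, the cofactor of protein C, was the exception at 26.0 FPKM in NASH, 29.3 in EV low dose, 34.7 in EV high dose and 17.3 in control liver (log2 0.01, 0.56 as deposited), with control the lowest library and also the lowest of all 38 genes there. C4bp FPKM per Pros1 FPKM was 12.98 in NASH, 12.5 in EV low dose, 11.5 in EV high dose and 13.9 in control liver. Plg, plasminogen, was at 309 FPKM in NASH, 299.8 in EV low dose, 322 in EV high dose and 467 in control liver (log2 -1.15, -0.60 as deposited). Among the 6 vitamin K-dependent proteins (F2, F7, F9, F10, Proc and Pros1), 3 were 2-fold lower and log2 ratios ran from -1.15 to 0.01, whereas as deposited 0 were 2-fold lower and ratios ran from -0.60 to 0.56.

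Shares within a library do not depend on scaling. Complement activation held 28.2% of the summed FPKM of the 38 genes in NASH, 24.4% in EV low dose, 22.96% in EV high dose and 15.4% in control liver. C3 alone held 15.3%, 11.8%, 10.4% and 6.46% in the same order, and the other 9 genes of this branch together 12.9%, 12.6%, 12.6% and 8.89%, with summed levels of 1244 FPKM in NASH and 1235 FPKM in control liver. Clotting factors held 40.6% in NASH, 43.7% in EV low dose, 45.0% in EV high dose and 51.0% in control, of which fibrinogen alone held 23.4%, 25.4%, 27.1% and 35.7% of the total in the same order. Terminal complement held 5.18%, 5.67%, 6.34% and 7.44%. Complement regulators (between 11.4% and 12.9%) and clotting inhibitors (between 9.86% and 11.4%) took similar shares in all libraries. Per FPKM of Fgg there was 2.02 FPKM of C3 in NASH, 1.41 in EV low dose, 1.13 in EV high dose and 0.490 in control liver, and per FPKM of C8a 19.5, 11.96, 9.36 and 4.25. These pairs of genes were chosen after their values were seen.

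**Figure D3:**
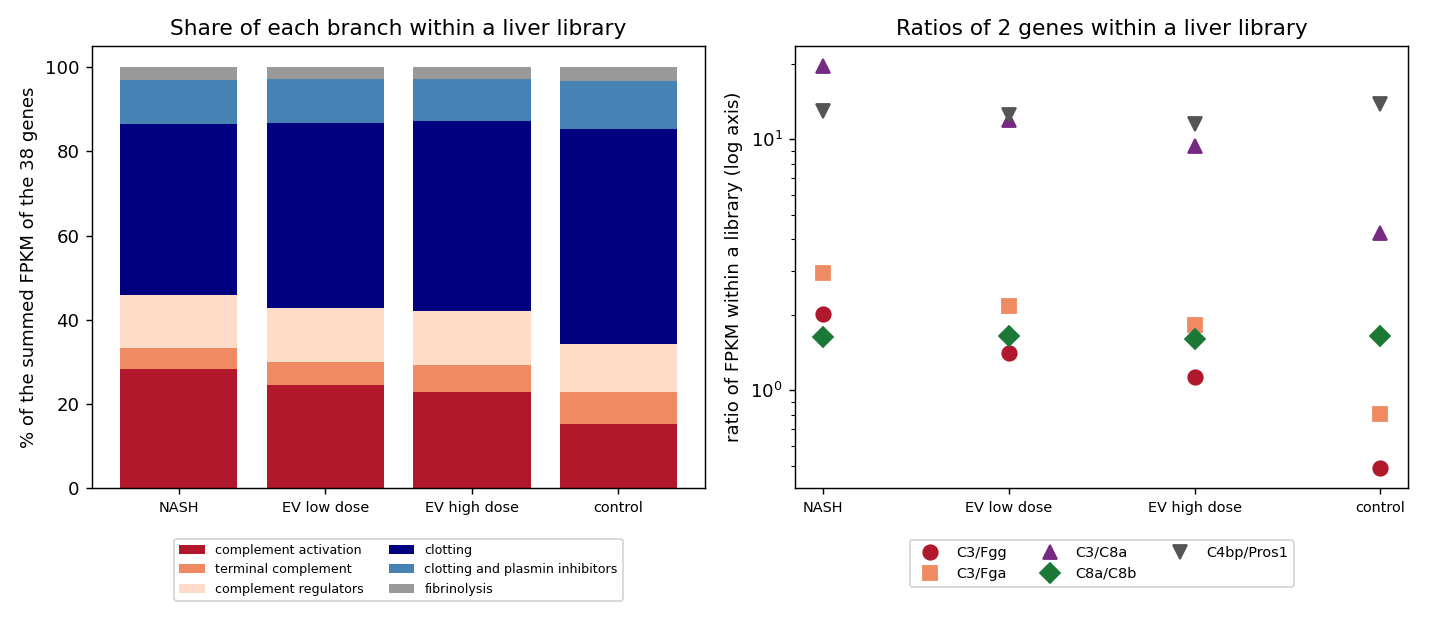
Left, share of each branch in the summed FPKM of the 38 genes in each liver library (%); right, ratios of the FPKM of 2 genes within a library (log axis), with NASH, EV low dose, EV high dose and control from left to right. Complement activation takes 28.2% in NASH and 15.4% in control; C3 per Fgg is 2.02 in NASH and 0.490 in control, while C8a per C8b stays between 1.61 and 1.65.

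Neighbouring genes had like ratios of NASH over control. There were 7 pairs of these genes whose ends lie within 100000 bases of each other, and the log2 ratios of NASH over control within a pair differed by 0.19 or less: -2.00 and -2.02 for C8b and C8a, -1.87 and -1.69 for Fgg and Fga, -1.69 and -1.54 for Fga and Fgb, -1.11 and -1.15 for F7 and F10, -1.47 and -1.47 for F11 and Klkb1, -0.40 and -0.40 for C1ra and C1s1, and -0.02 and -0.09 for Cfb and C2. In EV high dose over NASH some pairs stood apart: F11 and Klkb1 at 0.07 and 0.59, C1ra and C1s1 at -0.02 and 0.41, F7 and F10 at 0.28 and 0.52. Others were closer: C8b and C8a at 0.85 and 0.83, Cfb and C2 at 0.25 and 0.41, Fgg, Fga and Fgb at 0.61, 0.46 and 0.55. Pairs that are not neighbours were not compared in this way. Neighbours also have related functions, so position and function cannot be told apart here.

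Markers of other cells moved with the NASH library. The 8 Kupffer cell and macrophage markers summed to 781 FPKM in NASH, 755 in EV low dose, 837 in EV high dose and 136 in control liver, and 8 of 8 were 2-fold higher in NASH relative to the median gene. Stellate cell markers summed to 266 FPKM in NASH, 250 in EV low dose, 270 in EV high dose and 83.3 in control, with 3 of 7 at least 2-fold higher in NASH. The hepatocyte markers had a median log2 ratio of -0.86, with 3 of 9 at least 2-fold lower in NASH (as deposited -0.31 and 2 of 9). Among the lower were Ttr at -2.23 and Serpina1c, of a family of near-identical genes, at -2.89. As deposited 3 of 9 lay above 0: Apob at 0.58, Hnf4a at 0.33 and Tat at 0.08. Relative to the median gene these stood at 0.02, -0.22 and -0.48. Megakaryocyte and platelet markers summed to 6.33 FPKM in NASH, 6.43 in EV low dose, 6.11 in EV high dose and 1.75 in control liver, with Gp1bb and Gp9 at 0.198 FPKM or less in each. Liver endothelium markers summed to 94.5, 88.4, 104 and 63.7 FPKM and cholangiocyte markers to 59.4, 43.2, 49.4 and 13.2 FPKM in the same order, the last mostly from Spp1. In bulk tissue fewer hepatocytes and less RNA per hepatocyte cannot be told apart, and the part of these markers in the ratios above was not tested. Relative to the hepatocyte marker median, 4 of the 38 genes were 2-fold lower and 1, C3, was 2-fold higher.

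Of 50 further genes of these pathways, 42 passed the 1 FPKM filter in liver, and 6 were 2-fold lower and 10 higher in NASH than in control relative to the median gene (as deposited 1 and 12). The lower genes included Cfhr2, a relative of the regulator factor H, at 151 FPKM in NASH against 292 in control liver (log2 -1.50, -0.95 as deposited). Hrg, histidine-rich glycoprotein, stood at -1.33 (-0.78 as deposited) and Vkorc1, which recycles vitamin K, at -1.13 (-0.58 as deposited). Among the higher, C1qb and C1qc, chains of C1q, which macrophages make, stood at 1.65 and 1.56, with C1qc at 131 FPKM in NASH against 29.5 in control liver. C3ar1, the receptor of the C3a fragment, stood at 1.55. The median of the 42 genes was 0.00, against -1.08 for the 38.

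With the low EV dose no gene of the 38 was 2-fold apart from NASH liver, where 0.443% of all genes were 2-fold higher and 0.225% lower. Relative to the median gene 33 of 38 lay above 0, where 50% of all genes and 72.9% of genes of 20 FPKM or more did. As deposited 29 of 38 lay above 0, against 28.9% of all genes. The median of genes of 20 FPKM or more stood at 0.005 as deposited, so a larger share of genes at that level lay above 0. The median log2 ratio was 0.28 (0.14 as deposited), with 0.36 in terminal complement, 0.30 in clotting, 0.29 in clotting inhibitors, 0.25 in complement regulators and 0.23 in complement activation. F13b had the highest ratio (0.66), with 56.0 FPKM in NASH, 81.1 in EV low dose, 89.2 in EV high dose and 71.5 in control liver. C8a and C8b followed at 0.55 and 0.53. C4b, C3 and C1ra were lowest, at -0.15, -0.15 and -0.13.

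The high EV dose liver showed no 2-fold difference from NASH among the 38 genes either, against 0.816% of all genes higher and 0.373% lower. Relative to the median gene 34 of 38 lay above 0, where 71.7% of genes of 20 FPKM or more did, and as deposited 30 of 38 did, against 33.4% of all genes. The as-deposited median of genes of 20 FPKM or more was 0.045, so here too a larger share of genes at that level lay above 0. The median was 0.41 (0.27 as deposited). Terminal complement had a median of 0.77, with 5 of 6 genes between 0.74 and 0.85 and Hc at 0.02 (-0.11 as deposited). Clotting stood at 0.47, inhibitors at 0.42, complement regulators at 0.38 and complement activation at 0.23. Mbl2 had the highest ratio (0.90), then C8b (0.85) and C8a (0.83), and Masp1, C3 and C4b the lowest (-0.25, -0.22 and -0.20). The fibrinogen chains stood at 0.61 (Fgg), 0.55 (Fgb) and 0.46 (Fga), and at 0.36, 0.34 and 0.28 with the low dose. Both doses are set against the same NASH library, which also enters the ratio to control, so a level peculiar to that library would shift all of these values. In the hepatocyte markers the median ratio to NASH was 0.18 with the low dose and 0.29 with the high dose.

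High dose and low dose, which share no library, differed little. No gene of the 38 was 2-fold apart (0.303% of all genes were higher and 0.163% lower), 30 of 38 lay above 0 where 50% of all genes and 60.2% of genes of 20 FPKM or more did, and the median was 0.10. The highest were C6 (0.65), Mbl2 (0.54) and C9 (0.49), and the lowest Masp1 (-0.21). For C6 this was 52.8 FPKM in EV high dose against 33.2 in EV low dose.

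In colon 10 of the 38 genes reached 1 FPKM in at least 1 library, and the other 28 stayed at 0.792 FPKM or less. Those 10 were C1ra, C1s1, C2, C3, C4b, Cfb, C4bp, Vtn, Proc and Pros1, so 6 of the 10 complement activation genes reached it and no clotting factor or terminal complement gene did. Cfb was highest, at 32.5 FPKM in NASH, 32.6 in EV low dose, 27.6 in EV high dose and 25.4 in control colon. In liver it was at 477 FPKM in NASH and 329 in control. Pros1 differed least between the organs, at 8.87 FPKM in NASH, 8.15 in EV low dose, 8.95 in EV high dose and 7.70 in control colon, against 26.0 in NASH and 17.3 in control liver. Colon ratios are as deposited, since the median gene stood between -0.06 and 0.08.

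C4bp was the 1 gene 2-fold apart between NASH and control colon, where 1.97% of the 15245 colon genes were 2-fold lower and 2.43% higher. It was at 3.05 FPKM in NASH, 5.24 in EV low dose, 3.72 in EV high dose and 8.18 in control colon (log2 -1.18), lowest in NASH and highest in control. In liver its FPKM stood the other way, with 0.50 as deposited and -0.06 relative to the median gene, and the difference between the organs was not tested. The other 9 genes ran from -0.14 to 0.58 in NASH over control, with C1ra highest (11.2 FPKM in NASH, 7.46 in EV low dose, 8.48 in EV high dose and 7.16 in control colon). C1rb, the close copy of C1ra, was at 22.2 FPKM in NASH, 1.68 in EV low dose, 2.29 in EV high dose and 1.94 in control colon, and C1s2, the copy of C1s1, at 3.25 FPKM in NASH, 0.573 in EV low dose, 0.791 in EV high dose and 1.30 in control colon, so the NASH library was highest for C1ra and for both copies. FPKM may be shared between copies, and the part of this in the C1ra value was not tested. C3 stood at 0.49 (15.6 FPKM in NASH, 9.96 in EV low dose, 12.6 in EV high dose and 10.8 in control colon). Against NASH colon the 10 genes had medians of -0.09 with the low dose and -0.01 with the high dose, and none was 2-fold apart (0.905% of genes higher and 1.95% lower with the low dose, 1.1% and 1.43% with the high dose). C3 stood at -0.60 and -0.29, and C4bp at 0.62 and 0.22.

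**Figure D4:**
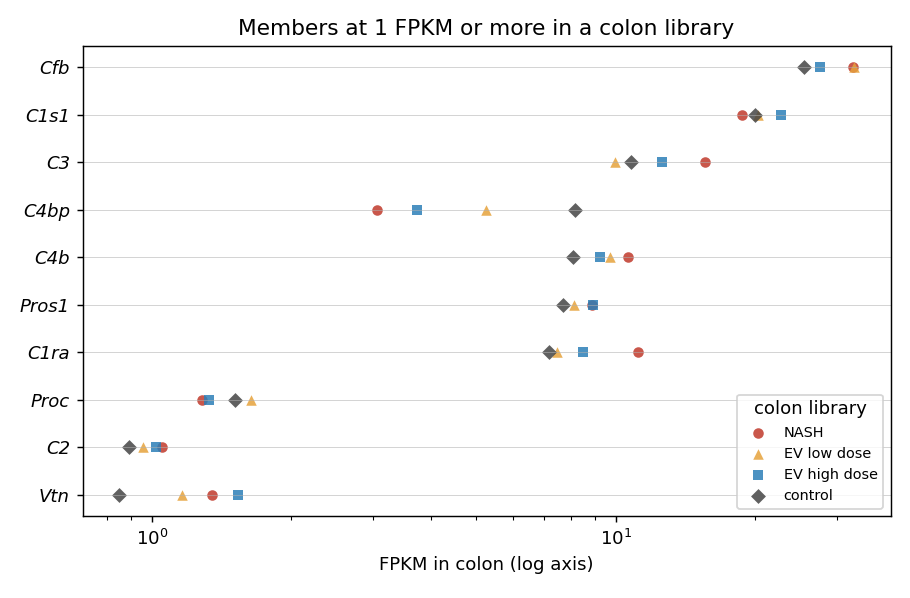
FPKM (log axis) of the 10 genes that reached 1 FPKM in at least 1 colon library, 1 point per library. C4bp spans 3.05 FPKM in NASH to 8.18 in control, while Pros1 stays between 7.70 and 8.95.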

How the data were processed

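The authors deposited FPKM of all 8 libraries in 1 table. Per the labels, TRIzol and an RNeasy Plus kit were used for RNA and a TruSeq Stranded Total RNA Gold kit for libraries. Trimmomatic 0.38, HISAT2 and StringTie, with the build mm10, stand in the submitters' processing notes. Read depth and strand setting are not stated in those notes or the labels, nor is the role of each tool, so no interval for counting error can be given. Groups were taken from sample titles and columns from sample descriptions. Of 45777 gene IDs 45679 matched RefSeq symbols of GRCm38.p6.

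Ratios were taken on log2(FPKM + 1), which slightly understates differences of genes near 1 FPKM. Genes with 1 FPKM in at least 1 of a tissue's 4 libraries were kept (12866 in liver, 15245 in colon). Liver ratios were centred on the median kept gene. A gene was counted as apart at 2-fold. With 1 library per group no test was run. The members, branches and further lists were chosen with earlier results of these data known. Named were the 3 highest and 3 lowest ratios per branch and per EV dose. The code was tested on simulated libraries. Python 3.11.15, numpy 2.4.6, pandas 2.3.3 and matplotlib 3.10.9 were used.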

Additional observations from a re-analysis of the deposited data

How the results depend on the processing

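Results of NASH over control depend on what the libraries are scaled to, because a rescaling moves every gene of a library together. Terminal complement had the lowest and complement activation the highest of the 5 branch medians under each setting listed here. In each list the values are the median of the 38 genes, then complement activation, terminal complement, complement regulators, clotting and clotting inhibitors. With a pseudocount of 0.1 FPKM they were -1.24, -0.53, -1.85, -0.76, -1.28 and -1.37, and with 5 FPKM -0.77, -0.12, -1.35, -0.34, -0.77 and -0.94. As deposited, and also with no filter, where the median gene is at 0, they were -0.52, 0.17, -1.13, -0.059, -0.56 and -0.66. After median-of-ratios scaling they were -1.22, -0.54, -1.84, -0.77, -1.25 and -1.38. With libraries set to the same protein-coding sum they were -0.31, 0.39, -0.91, 0.16, -0.34 and -0.44. Relative to hepatocyte markers they were -0.22, 0.48, -0.83, 0.25, -0.25 and -0.36. Relative to genes of 20 FPKM or more, a setting chosen after seeing the data, they were -0.79, -0.10, -1.40, -0.33, -0.83 and -0.93. With the mean in place of the median, complement activation stood at -0.58 and clotting inhibitors at -0.99. Complement activation thus changed sign as deposited, with no filter, with the same protein-coding sum and relative to hepatocyte markers, and complement regulators with the last pair of these.

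Against 22 genes 2-fold lower in NASH, there were 13 with a pseudocount of 5 FPKM and relative to genes of 20 FPKM or more, 7 as deposited and with no filter, and 4 with the same protein-coding sum and relative to hepatocyte markers, where 1 was higher. The median ratio to NASH of the low dose was 0.14 as deposited and with no filter, 0.13 with the same protein-coding sum and relative to genes of 20 FPKM or more, and 0.094 relative to hepatocyte markers. That of the high dose was 0.18 with the same protein-coding sum, 0.23 relative to genes of 20 FPKM or more and 0.12 relative to hepatocyte markers. At 1.5-fold, 1 gene was higher with the low dose, 10 with the high dose, and 1 between high and low dose. A value was taken as moved when it shifted by over 0.14 on the log2 scale, the spread between the EV libraries. With near-identical copies summed, 21 genes were 2-fold lower, and with a filter at 5 FPKM 22 were; the medians shifted by less than this with both. Leaving out a library was not possible with 1 per group. No paired analysis was possible because each group holds 1 library per tissue.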
